A study of Mus musculus with 6 samples.

Results

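The class I antigen presentation pathway was followed through 10 genes matched by symbol among the 55232 features of the deposited table: the heavy chain genes H2-K1, H2-D1 and H2-T23, the light chain gene B2m, the peptide transporter genes Tap1 and Tap2, the tapasin gene Tapbp, the peptide-trimming gene Erap1, the transactivator gene Nlrc5, and Cd274, which encodes the checkpoint ligand PD-L1. All 10 were found, each in 1 row, and 9 passed the filter on low counts. RNA was sequenced from mouse pulmonary microvascular endothelial cells (MPVECs), described in the labels as a cell line, which had occupied the lower chamber of a co-culture for 12 h and were themselves untreated in both groups. In the control group (3 samples) the partner was untreated TCMK-1, which is a tubular epithelial line from mouse kidney. In the repletion group (3 samples), abbreviated IR in the treatment labels and OD in the titles, the TCMK-1 partner had been depleted of ATP and then repleted. No strain, genotype or passage is given for either line, and whether replicate samples were separate cultures is not stated. The p-values therefore describe the spread among these 6 samples alone, and that spread may be technical.

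MHC class I molecules show short peptides from a cell's own proteins to CD8 T cells. Proteasomes cut the peptides, the TAP1-TAP2 transporter moves them into the endoplasmic reticulum (ER), ERAP1 trims them, and tapasin with calreticulin and ERp57 loads them onto a heavy chain paired with beta2-microglobulin. Nearly all nucleated cells carry class I molecules. In endothelium they are among the proteins that interferon raises, through factors such as NLRC5 and IRF1. Class I promoters hold short elements known as the kappaB site, the interferon-stimulated response element and the SXY module.

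Libraries held 15582349 to 17817618 counts and 17899 to 22130 features with a count, and counts of replicates differed beyond sampling noise (chi-square of 8.56 to 23.3 per feature). Of 13804 features tested, 2830 rose and 2654 fell in the repletion group. Of 18 endothelial markers 16 were tested, with 8 higher and 2 lower. Their summed level was 2580 to 2870 CPM (counts scaled to a common library size) in control and 2690 to 3110 in the repletion group, while Sox17 was at 0 in every library. Of 17 tubular markers, Epcam, Krt18, Slc34a1 and Umod were at 0 in every library, and the summed level went from 11.6 to 13.6 CPM in control to 20.5 to 29.8, with Cubn the 1 of 5 tested that rose. Of 14 leukocyte markers, Itgam, Cd3e, Ms4a1 and Nkg7 were at 0, and the summed level of 391 to 429 CPM in controls and 219 to 303 in the repletion group was nearly all Cd68, the 1 of 3 tested that fell. Among the markers of fibroblasts and mural cells 0 of 3 tested passed, with sums of 21.1 to 23.4 and 18.1 to 24.9 CPM. Lung epithelial markers summed to at most 1.97 CPM in controls and 3.15 in the repletion group, with 1 of 2 tested higher and none lower. Lymphatic endothelial markers summed to 80.7 to 104 and 121 to 134 CPM, with 3 of 4 tested higher and 1 lower. The part of the tubular, leukocyte and lymphatic differences in the class I results was not tested.

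The classical heavy chains, the light chain and Tap1 were lower after co-culture with repleted TCMK-1 cells, each at 58.7% to 62.7% of its control level, while Tap2, Tapbp and Nlrc5 did not pass the test. Of the 9 tested genes, 6 fell, 0 rose and 3 did not pass, where 19.2% of all tested features fell and 20.5% rose (adjusted p under 0.05, edgeR's quasi-likelihood test with Benjamini-Hochberg adjustment). The median log2 fold change of the 9 was -0.67, against 0.00 over all tested features. In 6 of the 9, every repletion sample lay below every control sample, which held for 25.4% of all tested features. Together the 10 genes took 0.424%, 0.378% and 0.371% of all counts in control and 0.257%, 0.281% and 0.240% in repletion libraries. In bulk RNA of this kind, fewer cells with class I transcripts and less transcript per cell cannot be told apart.

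The promoter stretches of the 3 structural genes that fell furthest in absolute level are shown because they carry the letters of the known class I elements. RefSeq windows of 250 bases before the start (GRCm38.p6) were found for 8 of the 10 genes, all but Tap2 and Nlrc5. The H2-K1 window before the more upstream of its RefSeq starts, chr17:34000348-34000597 on the minus strand, is given whole, 5′ to 3′, with the kappaB letters, the interferon element, the CRE core and the CCAAT box (read as ATTGG) in capitals in that order.
H2-K1 window: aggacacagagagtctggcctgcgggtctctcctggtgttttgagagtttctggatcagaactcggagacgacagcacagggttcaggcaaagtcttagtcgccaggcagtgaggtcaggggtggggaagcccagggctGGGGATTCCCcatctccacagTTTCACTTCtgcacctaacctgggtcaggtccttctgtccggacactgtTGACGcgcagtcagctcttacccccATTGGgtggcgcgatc
The letters searched, on both strands, were GGG, any 2 bases and TTCCC for the kappaB site, GAANNGAAA for the interferon element, TGACG for the CRE core, CCAAT for the CCAAT box and TTCNNNGAA for the GAS element, and they were chosen after the sequences were seen. In H2-K1 they began at positions -111, -90, -41 and -16 from the start, with no GAS match.

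The kappaB site and interferon element of H2-K1 (chr17:34000429-34000458, minus strand) recur in H2-D1 (chr17:35262923-35262952, plus strand) with the same letters in capitals and the same spacing. The H2-D1 stretches lie inside its annotated gene body, which begins further upstream than the RefSeq start.
H2-K1 upstream elements: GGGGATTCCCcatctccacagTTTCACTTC
H2-D1 upstream elements: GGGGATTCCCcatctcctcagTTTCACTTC
The CRE core and CCAAT box, 20 bases apart, were in the same arrangement in H2-K1 (chr17:34000359-34000388, minus strand), H2-D1 (chr17:35262993-35263022, plus strand) and B2m (chr2:122147609-122147638, plus strand), and are printed to show how much the letters between them differ.
H2-K1 CRE and CCAAT: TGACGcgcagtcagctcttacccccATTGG
H2-D1 CRE and CCAAT: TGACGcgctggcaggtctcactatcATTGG
B2m CRE and CCAAT: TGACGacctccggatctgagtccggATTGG
This spaced arrangement was in 3 of the 8 windows and in 30 of 32851 windows of all RefSeq starts (0.0913%). The search fixed the gap at 20 bases, the gap in these 3 genes, so the shares describe the pattern and test nothing. Only H2-K1 and H2-D1 of the 8 held all of the kappaB, interferon, CRE and CCAAT letters, which 7 of the 32851 windows did (0.0213%). Those 7 include the windows of H2-K1, H2-D1, H2-Q4 and H2-Q7 themselves. Singly the letters are common, with 1.53% of all windows holding the kappaB letters, 6.31% the interferon element, 17.8% the CRE core, 33.8% CCAAT and 7.02% the GAS letters. Tap1 had TGACG at -86 and CCAAT at -222, H2-T23 had CCAAT at -52, Tapbp had CCAAT at -248 and -165, and the windows of Erap1 and Cd274 held none of the 4. Among 113 genes of the neighbouring lists with a window, H2-M3 held the spaced arrangement and H2-Q4 and H2-Q7 held all 4 kinds. A match of letters is a description of the sequence and says nothing of binding.

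**Figure D1:**
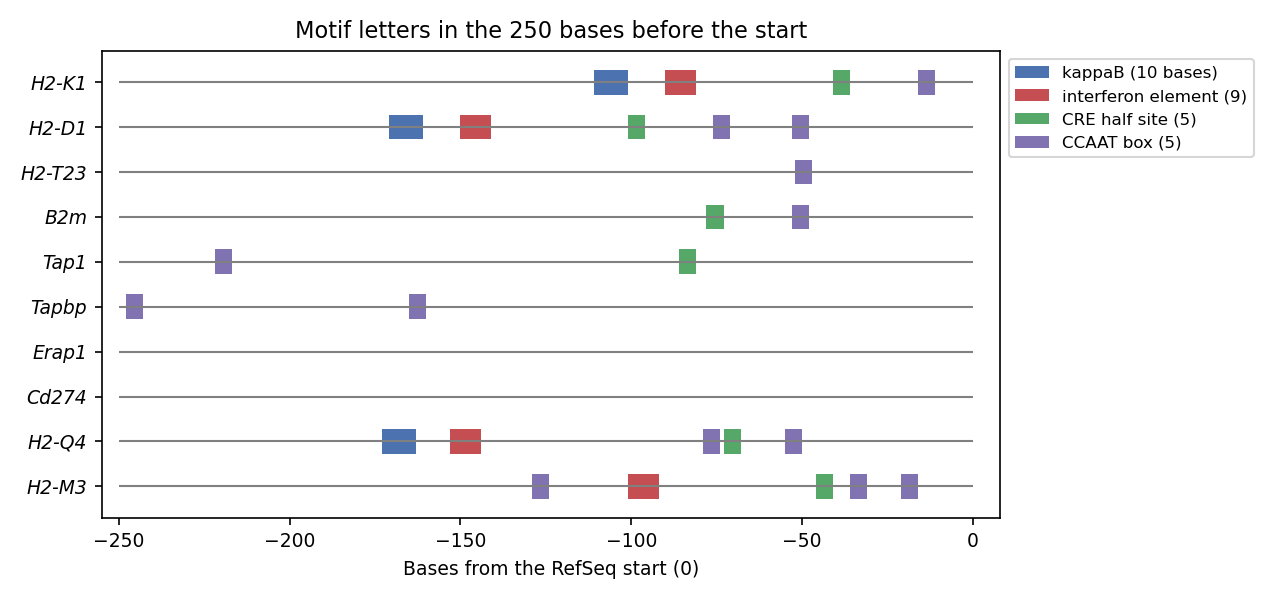
Positions of the motif letters in the 250-base RefSeq windows, drawn as bases from the start (x axis), with 1 colour per motif. The genes (y axis) are the 8 class I presentation genes with a window, H2-Q4 and H2-M3. H2-K1 and H2-D1 hold all 4 kinds in the same order, and H2-Q4 also holds all 4. B2m and H2-M3 hold the CRE core and CCAAT 20 bases apart, as H2-K1 and H2-D1 do. Erap1 and Cd274 hold none.

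H2-K1 (ENSMUSG00000061232, chr17:33996017-34000333, minus strand) encodes a classical heavy chain, the part of the molecule that holds the peptide. It stood at 271, 273 and 273 CPM in the control samples and at 163, 182 and 147 in the repletion samples. The groups did not overlap, and the control samples lay much closer together than the repletion samples. Its log2 fold change was -0.73 ± 0.10 (SE; 95% interval -0.95 to -0.51; adjusted p 4.2e-05, edgeR's quasi-likelihood test), or 60.2% of control. H2-D1 (ENSMUSG00000073411, chr17:35262730-35267499, plus strand), the other classical heavy chain gene, stood at 658, 669 and 679 CPM in controls and 434, 377 and 365 in the repletion group. Again no repletion sample reached the control range, and the log2 fold change was -0.77 ± 0.10 (SE; 95% interval -0.98 to -0.56; adjusted p 1.9e-05), or 58.7% of control.

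The balance between the 2 heavy chain genes did not move beyond its spread. Per kilobase, H2-D1 was 2.45, 2.48 and 2.51 times H2-K1 in control and 2.69, 2.10 and 2.52 times in the repletion samples, which overlap. The longest matching stretch of the H2-K1 and H2-D1 transcripts was 91.2% identical over 1049 bases, and neither gene had a copy at 95% identity over 30% of its length. Neither overlaps another annotated gene. H2-D1 shares 280 bases at 96.4% identity with H2-Q7, so some of its reads could have been placed on another class I gene. Class I genes differ widely between mouse strains and the reference is C57BL/6J, and the strain of these cells is not given, so reads of another haplotype may have been missed. That was not tested.

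H2-T23 encodes Qa-1, a non-classical heavy chain read by natural killer cells and a subset of T cells. Its counts were 5, 1 and 1 in control and 5, 0 and 3 in repletion libraries, below the filter, and was not tested. A floor of 3 counts corresponds to 0.168 to 0.193 CPM of the library total here, so both groups sat near or under it and no fold is given. Its transcript shares stretches of at least 95% identity with other class I genes, among them 364 bases with H2-Q1 and 285 with H2-T22, so reads from H2-T23 may have been placed elsewhere or dropped. The authors' deposited table lists it with a log2 fold change of 0.11 and an adjusted p of 0.975.

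B2m (ENSMUSG00000060802, chr2:122147686-122153083, plus strand) encodes beta2-microglobulin, the light chain that pairs with the heavy chain of class I molecules. Its level was 3120, 2560 and 2510 CPM in controls and 1590, 1910 and 1630 in the repletion group. Control replicate 1 was above the rest of its group, and the highest repletion sample was still well under the lowest control sample. The log2 fold change was -0.67 ± 0.11 (SE; 95% interval -0.90 to -0.44; adjusted p 1.4e-04, edgeR), or 62.7% of control. Patl2, which overlaps B2m on the opposite strand, had at most 8 counts in a library. The ratio of B2m to the sum of H2-K1 and H2-D1, per kilobase, was 10.1, 8.17 and 7.94 in control and 8.01, 10.3 and 9.56 in the repletion samples, and the groups overlapped.

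**Figure D2:**
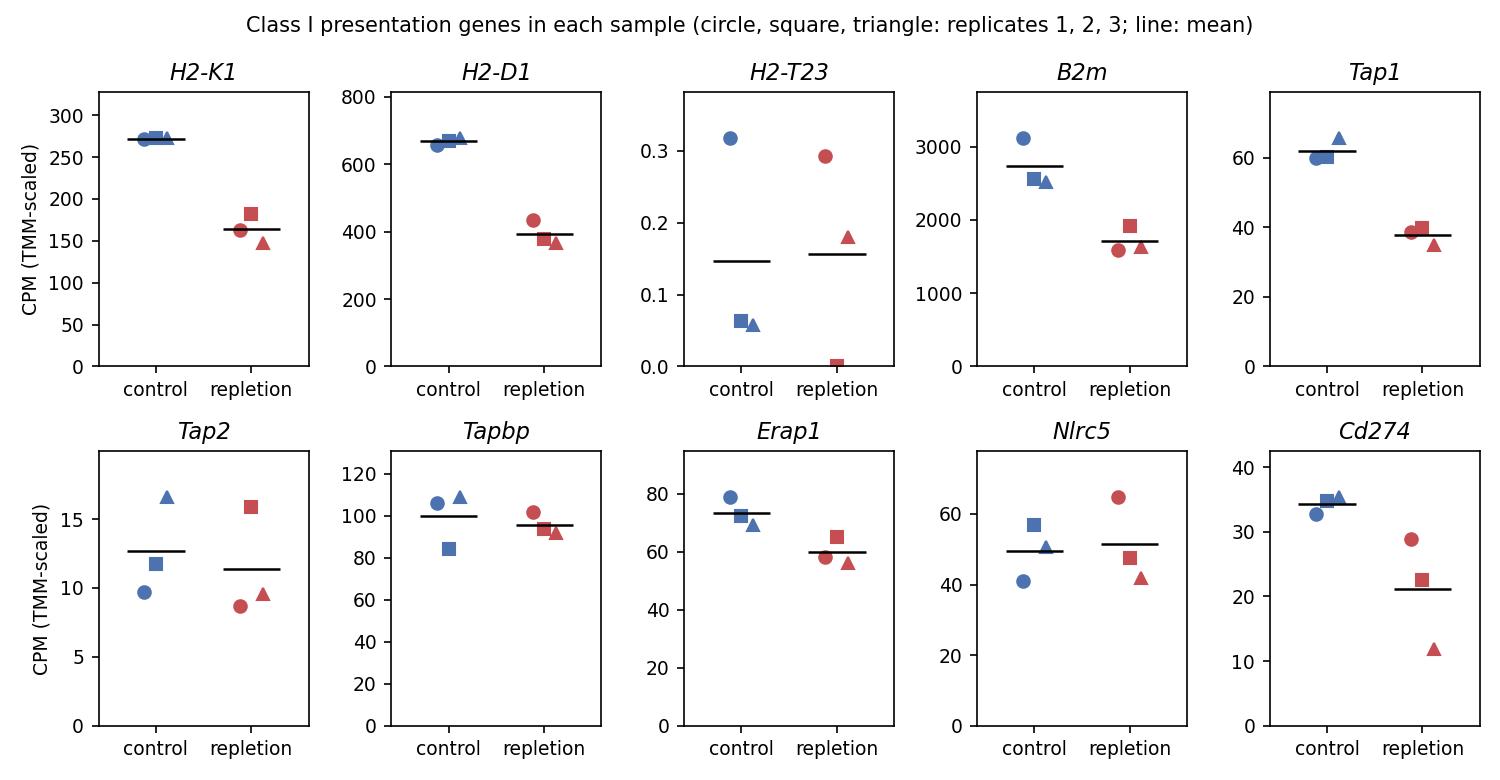
TMM-scaled CPM (y axis, from 0) of each of the 10 genes in the 3 control and 3 repletion samples (x axis), with a symbol per replicate number and a line at the group mean. The groups are apart for H2-K1, H2-D1, B2m, Tap1, Erap1 and Cd274 and overlap for H2-T23, Tap2, Tapbp and Nlrc5.

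The transporter genes did not give the same result. Tap1 (ENSMUSG00000037321, chr17:34187553-34197225, plus strand), which encodes the TAP1 subunit, stood at 60.1, 60.2 and 65.8 CPM in controls and 38.8, 39.8 and 35.0 in the repletion group, with a wide gap between the groups. It fell by 0.71 ± 0.12 on the log2 scale (SE; 95% interval -0.96 to -0.47; adjusted p 1.6e-04, edgeR). Tap2 (ENSMUSG00000024339, chr17:34203527-34216321), the gene of the partner subunit, was at 9.73, 11.7 and 16.6 CPM in controls and 8.70, 15.9 and 9.58 in the repletion group. Its samples were scattered through the same range, and the log2 fold change of -0.16 ± 0.24 had a 95% interval from -0.67 to 0.35 (adjusted p 0.641), wide enough to hold both no difference and a fall nearly as large as that of Tap1. The ratio of Tap1 to Tap2 per kilobase was 4.26, 3.56 and 2.74 in control and 3.08, 1.72 and 2.52 in the repletion samples. These overlap, so a difference in change between the subunit genes was not resolved.

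Tapbp (ENSMUSG00000024308, chr17:33915899-33929288) encodes tapasin, which tethers empty class I molecules to the transporter. Its level was 106, 84.0 and 109 CPM in controls and 102, 93.9 and 91.8 in the repletion group, and the groups overlapped. The log2 fold change was -0.06 ± 0.12 (SE; 95% interval -0.30 to 0.19; adjusted p 0.721, edgeR), an interval that leaves out the estimates for H2-K1, H2-D1, B2m or Tap1. Per kilobase, Tapbp was 2.93, 2.32 and 2.75 times Tap1 in control and 4.35, 3.92 and 4.35 times in the repletion samples, so this ratio was higher in every repletion sample. Zbtb22 overlaps Tapbp on the same strand and rose by 1.02 ± 0.19 on the log2 scale (adjusted p 5.6e-04), from 104, 158 and 129 counts to 275, 278 and 255. Reads from the shared stretch may have been given to either gene.

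Erap1 (ENSMUSG00000021583, chr13:74639568-74693201) encodes the aminopeptidase that trims peptides in the ER to the length class I molecules hold. It stood at 78.9, 72.5 and 69.1 CPM in controls and 58.1, 65.0 and 56.2 in the repletion group, with a narrow gap between the groups. The log2 fold change was -0.30 ± 0.11 (SE; 95% interval -0.54 to -0.06), or 81.3% of control, with an adjusted p of 0.0437 (edgeR), close to the threshold. The call was lost when any library but repletion replicate 2 was left out, with adjusted p 0.12, 0.0735 and 0.0597 without control replicates 1, 2 and 3 and 0.0767 and 0.157 without repletion replicates 1 and 3, and in the authors' deposited table, where the adjusted p is 0.0515. Cast, on the opposite strand and overlapping, fell by 0.34 ± 0.10 (adjusted p 0.0117). The transcripts share 834 bases, 14.78% of the Erap1 transcript. Without a stated strand setting, reads from that stretch may have been given to either gene.

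Nlrc5 (ENSMUSG00000074151, chr8:94434356-94527272) encodes the transactivator that assembles on class I promoters. It was at 41.0, 56.8 and 50.7 CPM in controls and 64.8, 47.6 and 41.8 in the repletion group. Repletion replicate 1 was the highest of the 6 and control replicate 1 the lowest, and the other 4 samples were mixed. Its log2 fold change was 0.05 ± 0.16 (SE; 95% interval -0.28 to 0.39; adjusted p 0.811, edgeR), an interval that does not reach the estimates for H2-K1 and H2-D1. The sign depended on a library, at -0.08 without control replicate 1 and -0.15 without repletion replicate 1. The sum of H2-K1 and H2-D1 per kilobase was 74.4, 54.4 and 61.7 times Nlrc5 in control and 30.3, 38.5 and 40.2 times in the repletion samples, without overlap.

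Cd274 (ENSMUSG00000016496, chr19:29367455-29388095) encodes PD-L1, which restrains T cells that recognise a class I molecule and is, like the class I genes, raised by interferon. It stood at 32.7, 34.8 and 35.4 CPM in controls and 28.9, 22.5 and 11.9 in the repletion group. All repletion samples were under the control range, but they spread widely, with replicate 3 far below the others. The log2 fold change was -0.70 ± 0.22 (SE; 95% interval -1.16 to -0.24; adjusted p 0.0163, edgeR), or 61.6% of control. Without repletion replicate 3 it was -0.42 with an adjusted p of 0.0652, and without repletion replicate 1 it was -1.0.

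**Figure D3:**
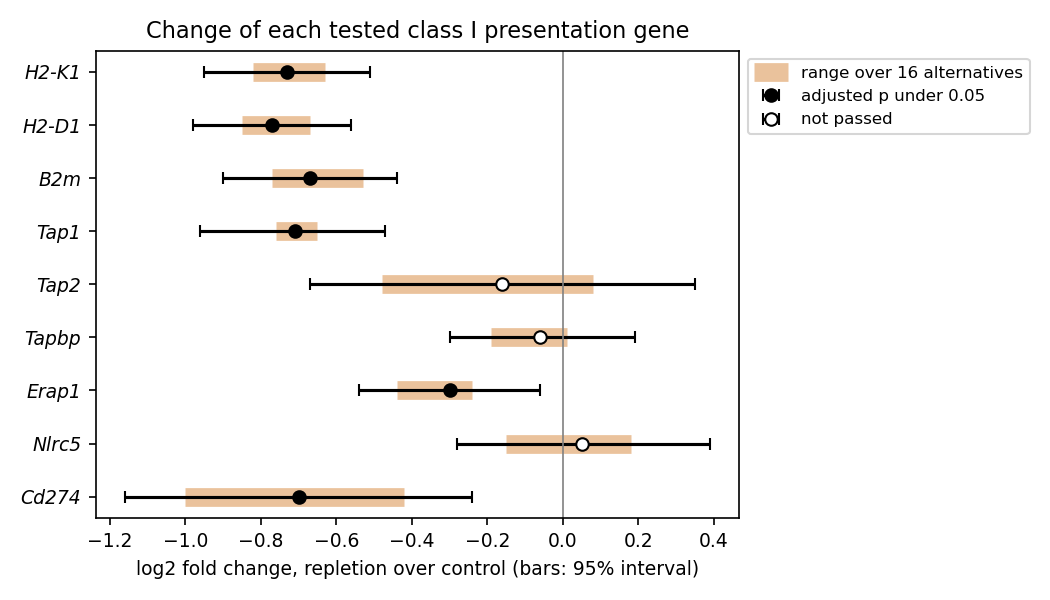
Log2 fold change, repletion over control, of each tested gene (x axis) with its 95% interval (thin bar), filled where the adjusted p was under 0.05, and the range over 16 other settings (wide band). H2-K1, H2-D1, B2m and Tap1 lie between -0.77 and -0.67 with narrow bands, while the bands of Tap2, Tapbp and Nlrc5 cross 0.

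Levels per kilobase of the deposited gene length (CPM per kb, TMM-scaled) put the genes in a wide order. In control, B2m was at 3170 ± 392 (SD, n = 3), H2-D1 at 259 ± 3.99, H2-K1 at 104 ± 0.406, Tapbp at 30.3 ± 4.15 and Tap1 at 11.3 ± 0.599. Below them came Erap1 at 10.1 ± 0.681, Cd274 at 9.47 ± 0.391, Nlrc5 at 5.83 ± 0.935, Tap2 at 3.35 ± 0.937 and H2-T23 at 0.0507. Of these neighbours only Erap1 and Cd274 overlapped in their samples. In the repletion group B2m was at 1990 ± 205, H2-D1 at 152 ± 14.3, H2-K1 at 62.8 ± 6.74, Tapbp at 29.1 ± 1.57 and Erap1 at 8.21 ± 0.637. Tap1, at 6.92 ± 0.459, was then under Erap1 in every sample, having been over it in every control sample. Cd274 at 5.83 ± 2.38 overlapped both Erap1 and Nlrc5 at 6.05 ± 1.41, and Tap2 was at 3.02 ± 1.04.

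The other heavy chain genes were mostly silent or lower. Of 29 listed, 25 were in the table, 10 of these had no count in any library, and 9 were tested. Of these 9, 5 fell (55.6%, against 19.2% of all tested features), 0 rose (against 20.5%) and 4 did not pass (median -0.50). The number that fell was 3 without control replicate 3. H2-T24 was at 1.01 (adjusted p 0.0756, edgeR) with groups that overlapped. It passed as higher without repletion replicate 2 (1.32, adjusted p 0.017) and with no filter (0.98, adjusted p 0.0476). H2-M3 fell by 0.53 (adjusted p 0.0457), a call lost in 7 of 16 other settings. H2-T22, a non-classical gene read by gamma delta T cells, stood at 67.4, 63.7 and 78.8 CPM in controls and 41.7, 40.9 and 36.9 in the repletion group, without overlap (log2 fold change -0.81 ± 0.12, adjusted p 6.9e-05, edgeR). Its transcript has a near-identical copy in H2-T10, which fell by 0.79 (adjusted p 0.00925), so the pair may share reads. H2-Q4 went from 70.8 ± 5.78 to 50.0 ± 3.03 CPM (SD, n = 3; log2 fold change -0.50, adjusted p 0.00227). Procr, whose product is the class I-like endothelial protein C receptor, fell by 0.40 (adjusted p 0.0174) with groups that overlapped, a call lost without control replicate 3 (0.10) and without repletion replicate 2 (0.0639) or 3 (0.0803).

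Genes that supply peptides gave 8 lower (47.1%, against 19.2% of all tested features), 0 higher (against 20.5%) and 9 not passing of 17 tested (median -0.29). Without control replicate 3 or without repletion replicate 3 the count of lower genes was 5, and without repletion replicate 1 there was 1 higher gene. Lap3, a cytosolic leucine aminopeptidase, had the smallest p, at 495, 435 and 533 CPM in controls and 316, 328 and 310 in the repletion group (log2 fold change -0.62 ± 0.10, adjusted p 1.8e-04, edgeR). The proteasome activator genes Psme1 and Psme2 fell by 0.60 (adjusted p 3.0e-04) and 0.99 (adjusted p 2.2e-04), and Psme2 has a near-identical copy, Psme2b. Among the immunoproteasome subunits, Psmb10 went from 32.9 ± 2.53 to 21.4 ± 3.41 CPM (SD, n = 3; adjusted p 0.00302), and Psmb8 had at most 10 counts in a library and was not tested. Psmb9, whose gene body overlaps that of Tap1 on the opposite strand, was at 2.80, 3.05 and 4.09 CPM in controls and 1.11, 2.20 and 1.26 in the repletion group, a log2 fold change of -1.12 ± 0.40 (adjusted p 0.0322). That call was lost without control replicate 2 (0.0564) or 3 (0.141) and without repletion replicate 1 (0.0918) or 3 (0.106). The constitutive subunit genes Psmb6 and Psmb7 also fell, by 0.41 (adjusted p 0.00464) and 0.35 (adjusted p 0.0213), while Psmb5 was at -0.28 (adjusted p 0.17). The Psmb7 call was lost without control replicate 1 (0.0644) or 3 (0.0756) and without repletion replicate 1 (0.068) or 3 (0.0662), and Psmb5 reached -0.50 (adjusted p 0.0119) without repletion replicate 2.

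Of 14 tested ER loading and quality control genes, 5 fell (35.7%, against 19.2% of all tested features), 0 rose (against 20.5%) and 9 did not pass (median -0.20). The number that fell was 8 once each library's trend with length and GC content was removed. Canx, the gene of calnexin, was at 1290, 1280 and 1280 CPM in controls and 842, 817 and 917 in the repletion group (log2 fold change -0.58 ± 0.09, adjusted p 1.4e-04, edgeR). Pdia3, which encodes ERp57, went from 1080 ± 16.6 to 790 ± 102 CPM (SD, n = 3; log2 fold change -0.46, adjusted p 0.00252). Calr, the gene of calreticulin, went from 618 ± 34.1 to 500 ± 33.0 CPM (log2 fold change -0.31, adjusted p 0.0192), a call lost without control replicate 3 (0.0907). Hspa5, a general ER chaperone gene, fell by 0.53 (adjusted p 5.1e-04). Susd6, whose product takes part in class I turnover, stood at 139, 147 and 131 CPM in controls and 75.3, 76.6 and 71.6 in the repletion group, at 53.6% of control (log2 fold change -0.90 ± 0.10, adjusted p 4.7e-06). Tapbpl, which encodes a peptide editor related to tapasin, was at 0.31 (adjusted p 0.28).

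**Figure D4:**
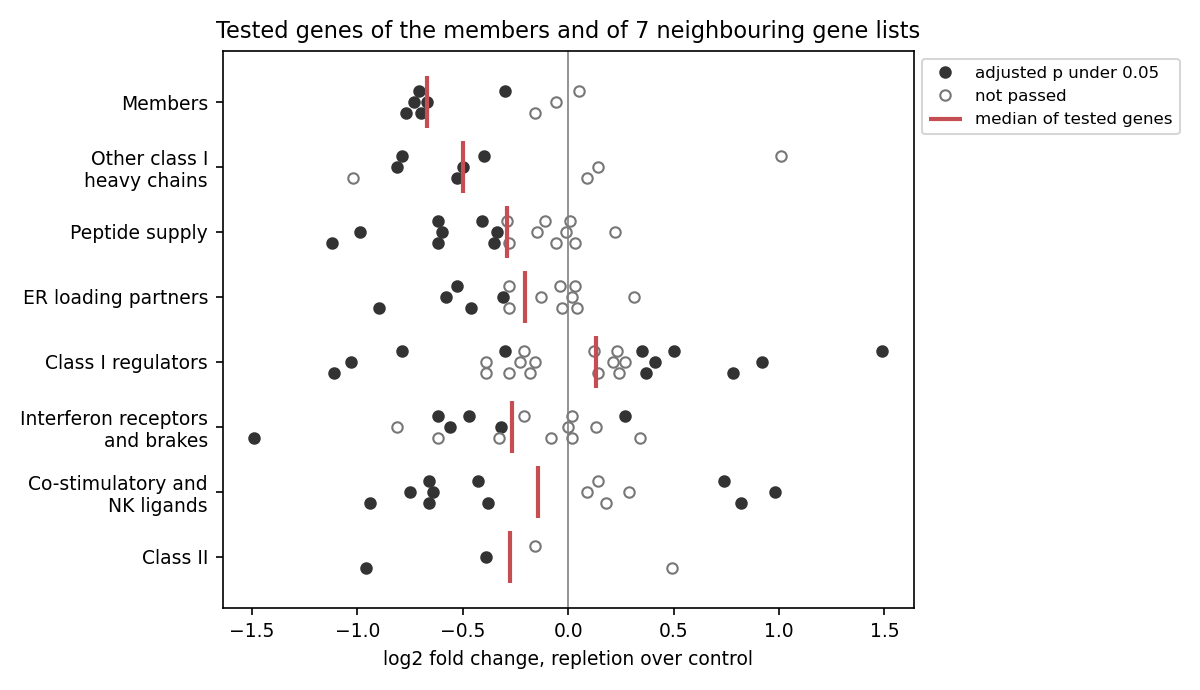
Log2 fold change, repletion over control (x axis), of every tested gene among the 10 class I presentation genes and in 7 neighbouring lists (y axis), filled where the adjusted p was under 0.05, with the list median as a red line. The medians run from -0.67 for the class I presentation genes to 0.13 for the regulators, whose genes lie on both sides of 0.

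Of 24 tested genes of factors that act on class I promoters, 7 rose (29.2%), 4 fell (16.7%) and 13 did not pass (median 0.13), against 20.5% and 19.2% of all tested features, and the number that rose was 3 without control replicate 2 and 4 without control replicate 3 or repletion replicate 3. Irf1, an interferon-induced activator of class I genes, stood at 39.1, 34.5 and 38.0 CPM in controls and 13.7, 19.8 and 18.4 in the repletion group. No sample of the groups overlapped, and the level was 46.5% of control (log2 fold change -1.11 ± 0.15, adjusted p 3.3e-05, edgeR). Stat2 and Irf7, both of the interferon pathway, fell by 0.79 (adjusted p 1.1e-04) and 1.03 (adjusted p 6.3e-04). In the other direction, Rfx5, a subunit of the RFX complex that binds the SXY module with NLRC5, was at 7.57, 6.47 and 5.71 CPM in controls and 15.0 to 20.5 in the repletion group. Every repletion sample was far above control (log2 fold change 1.49 ± 0.20, adjusted p 2.0e-05). Nfyc, a subunit of the CCAAT-binding factor NF-Y, rose by 0.92 (adjusted p 5.7e-05) and has a near-identical copy, Gm9144. The other subunit genes of RFX and NF-Y did not pass. Rfxap was at 0.21 (adjusted p 0.405) and Rfxank at -0.39 (adjusted p 0.235). Nfya was at 0.12 (adjusted p 0.474) and Nfyb at 0.23 (adjusted p 0.192). Irf2, which can oppose IRF1, rose by 0.78 (adjusted p 2.7e-04). Irf3 and Irf8 rose by 0.37 (adjusted p 0.0476) and 0.50 (adjusted p 0.0436), both close to the threshold. Irf9, at -0.23 (adjusted p 0.17), did not pass. Nfkb1, which encodes an NF-kB subunit, rose by 0.35 (adjusted p 0.0176). The Nfkb1 value was 0.07 (adjusted p 0.643) with the length and GC trend removed, and its call was lost without control replicate 2 (0.145) or repletion replicate 3 (0.0666).

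Upstream of these factors, 16 interferon receptor, kinase and brake genes were tested (median -0.27). Of these, 1 rose (6.25%, against 20.5% of all tested features), 5 fell (31.2%, against 19.2%) and 10 did not pass. The number lower was 3 without control replicate 2 or 3 and without repletion replicate 1 or 2, and the number higher ran from 0 to 2. Usp18, an interferon-induced brake on its own receptor, was at 73.8, 47.5 and 74.2 CPM in controls and 30.9, 21.6 and 16.9 in the repletion group, without overlap (log2 fold change -1.49 ± 0.20, adjusted p 2.2e-05, edgeR). The interferon-gamma receptor subunit gene Ifngr2 went from 65.1 ± 3.12 to 42.3 ± 4.43 CPM (SD, n = 3; log2 fold change -0.62, adjusted p 5.9e-04), while Ifngr1 was at 0.13 (adjusted p 0.522). For the interferon-alpha and -beta receptor, Ifnar2 fell by 0.56 (adjusted p 0.00911), a call lost without repletion replicate 3 (0.0517). Ifnar1 was at 0.02 (adjusted p 0.902). Ptpn11, a phosphatase gene, rose by 0.27 (adjusted p 0.0363), but 8 of 16 other settings lost that call, among them the removal of the length and GC trend (adjusted p 0.281) and the omission of control replicates 1, 2 and 3 (0.114, 0.0866 and 0.127) or repletion replicates 2 and 3 (0.0877 and 0.137). Ifng had no count in any library, and Ifnb1 had 0, 0 and 4 counts in control and 2, 8 and 0 in the repletion group.

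Genes of PD-L1 partners (Cmtm4 and Cmtm6) and of other ligands that meet T cells or natural killer cells were divided (14 tested, median -0.15). Of these, 3 were higher (21.4%, against 20.5% of all tested features), 7 lower (50.0%, against 19.2%) and 4 did not pass. Pvr, the gene of the ligand CD155, was at 283, 292 and 300 CPM in controls and 190, 199 and 173 in the repletion group (log2 fold change -0.64 ± 0.10, adjusted p 1.0e-04, edgeR). Cmtm6, which stabilises PD-L1 at the surface, went from 46.3 ± 1.52 to 34.3 ± 4.74 CPM (SD, n = 3; adjusted p 0.0139), a call lost without repletion replicate 1 (0.0531). Cd276, the gene of the ligand B7-H3, was at 38.1, 39.7 and 38.6 CPM in controls and 71.7, 74.2 and 84.2 in the repletion group, opposite in direction to Cd274 (log2 fold change 0.98 ± 0.11, adjusted p 6.5e-06). Among the NKG2D ligand genes, Ulbp1 rose from 374 ± 22.7 to 659 ± 105 CPM (adjusted p 3.8e-05). Raet1e fell from 52.1 ± 4.38 to 33.0 ± 4.16 (adjusted p 8.4e-04). Raet1d and H60b also fell, by 0.66 (adjusted p 0.00586) and 0.94 (adjusted p 0.0282). The H60b call was lost in 4 of 16 other settings. Raet1e overlaps Raet1d and H60b and closely resembles Raet1d, so the reads of these genes may be mixed. Pdcd1lg2 and Cd86 had no counts.

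The MHC on chromosome 17 holds 6 of the 10 genes, and its other genes were called about as often as all tested features. Between the outer ends of Tapbp and H2-T23 (33915899 to 36032855) lie 72 tested protein-coding genes other than the class I presentation genes, of which 15 rose (20.8%, against 20.5% of all tested features) and 16 fell (22.2%, against 19.2%), with a median of -0.04. The number that fell was 9 without control replicate 3 or without repletion replicate 3.

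Genes with the most similar profile over the 6 samples were sought among 9104 protein-coding genes by the root mean square (RMS) difference of centred log2 CPM. H2-K1 was nearest to Sfxn3 (RMS 0.0414), Gpbp1l1 (0.0475) and Serpinb6b (0.048), against a median of 0.392 over all candidates. Tap1 was nearest to Serpinb6b (0.028), Rnf121 (0.0332) and Pvr (0.0437), with a median of 0.373. Nlrc5 was nearest to Simc1 (0.0511), Gabbr1 (0.0576) and Atg9b (0.0817), with a median of 0.329, and these were at 0.05, 0.05 and 0.07 on the log2 scale between the groups without passing the test. The sign of those changes with the samples kept, as for Nlrc5: without repletion replicate 1, Simc1 was at -0.10, Gabbr1 at -0.12 and Atg9b at -0.08, and without control replicate 1 they were at -0.07, -0.07 and -0.02. These genes were picked for their likeness to Nlrc5 in these same 6 samples, so this shared behaviour follows from the choice.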

How the data were processed

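RNA-seq counts of 6 samples were used, with groups taken from the sample titles. Per the submitters' processing notes, HISAT2 2.0.5, featureCounts 1.5.0-p3, DESeq2 1.20.0 and GRCm38.p6 were used, with no role stated. The annotation release, strand setting and treatment of multi-mapping reads were not given in the sources used here. The deposited values are raw read counts per gene, per the file headers; the authors' deposited table also holds log2 fold changes and p-values.

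Counts were filtered with edgeR 4.0.16 (filterByExpr), which left 13804 of 55232 features, scaled by TMM (factors 0.97 to 1.03) and tested two-sided with the quasi-likelihood test in R 4.3.3, with Benjamini-Hochberg adjustment over all tested features and a threshold of 0.05. The SE of a log2 fold change comes from its F statistic. CPM use the TMM-scaled library size. On simulated counts of 13525 genes, the test called 53.1% of the 64 with a 1.5-fold change and 70.8% of the 65 with a 2-fold change. It called 7 of the 13332 left as they were. Far fewer genes were changed in the simulation than were called in the data, and each was drawn at the trended dispersion. The rates in the data may therefore differ. Copies were sought with BLAST 2.17.0 at 95% identity over 30% of a transcript in GENCODE M21. Many listed genes overlap another annotated feature, whose reads may be mixed with theirs. Promoters came from RefSeq. Alternatives were DESeq2 1.42.0, limma-voom 3.58.1, other scalings and filters, protein-coding genes only, a replicate block, removal of length and GC trends, and each sample left out.

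The genes and lists were chosen with earlier results of these data known. Besides the 10 genes, the naming rule took each list's smallest p past the threshold in each direction, the 3 nearest profiles of H2-K1, Tap1 and Nlrc5, and Irf1, Psmb8, Psmb9, Calr, Canx and Pdia3; other genes were chosen after their values were seen. For 1 further gene named by this rule, results are not reported here.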

Additional observations from a re-analysis of the deposited data

How the results depend on the processing

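Log2 fold changes and counts of calls were recomputed under 16 settings (15 for H2-T10). Ratios between genes, promoter matches and nearest profiles were not. The MHC region counts were added after seeing the data. H2-K1, H2-D1, B2m and Tap1 passed in all 16, with log2 fold changes of -0.82 to -0.63, -0.85 to -0.67, -0.77 to -0.53 and -0.76 to -0.65. The count of class I presentation genes that fell ran from 4 (without repletion replicate 3) to 6, and 0 rose in any setting. Erap1 lost its call with RLE scaling (-0.29, adjusted p 0.0502), library size only (-0.24, adjusted p 0.107) and the replicate block (-0.30, adjusted p 0.0831), and over the samples left out ran from -0.37 to -0.26, Cd274 from -1.0 to -0.42, Tap2 from -0.48 to 0.08, Tapbp from -0.19 to 0.00, Nlrc5 from -0.15 to 0.18, Simc1 from -0.10 to 0.15, Gabbr1 from -0.12 to 0.20 and Atg9b from -0.08 to 0.15. Values that did not pass changed sign: Tap2 to 0.08 without control replicate 3 and 0.00 without repletion replicate 1; Tapbp to 0.01 with library size only and 0.00 without control replicate 3; Nlrc5 to -0.09, Simc1 to -0.05 and Gabbr1 to -0.07 with the length and GC trend removed; and, without control replicate 1 and repletion replicate 1, Nlrc5 to -0.08 and -0.15, Simc1 to -0.07 and -0.10, Gabbr1 to -0.07 and -0.12 and Atg9b to -0.02 and -0.08. The cause was not tested. Of 911 values of 57 other named genes, 837 kept direction and call. Irf3, Irf8, Irf9, Rfxap, Rfxank, Nfya, Nfyb, Ifnar1 and Cmtm4 were not among the 57. Of 224 list counts 191 stayed within 1.5 times. The rises and falls over all features were 3214 and 2199 with library size only and 2483 and 3177 with the length and GC trend removed, against 2830 and 2654. Same-numbered samples deviated with correlations of -0.266, -0.204 and 0.0331 over 9397 genes, so the numbers were not taken as pairs; the replicate block gave 2485 rises and 2353 falls, with 5 class I presentation genes falling. Counts were few for H2-T23, Psmb8 and Psmb9, which limits what can be said of them.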

Other observations

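Class II presentation genes, which serve CD4 T cells, were mostly too low to test in these endothelial cells. Of 14 listed, 3 had no count in any library and 4 were tested. Of these 4, 2 fell (50.0%, against 19.2% of all tested features), 0 rose (against 20.5%) and 2 did not pass (median -0.27). Summed levels of 208 to 251 CPM in control and 166 to 185 in repletion libraries were nearly all Lgmn. The number of lower genes was 0 without control replicate 3 and 1 without control replicate 1 or repletion replicate 2 or 3, and 1 rose without repletion replicate 3. Lgmn, a lysosomal protease gene, went from 219 ± 20.8 to 167 ± 8.82 CPM (SD, n = 3; adjusted p 0.00676, edgeR), a call lost without control replicate 3 (0.0546). H2-DMb1 went from 4.79 ± 1.56 to 2.45 ± 0.163 CPM (adjusted p 0.0268) and has a near-identical copy, H2-DMb2. The H2-DMb1 call was lost with the length and GC trend removed (0.0568), without control replicate 1 (0.0909) or 3 (0.111) and without repletion replicate 2 (0.0507) or 3 (0.0587).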
